A study of Mus musculus with 16 samples.

Results

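The Notch pathway and the Hey family were followed through sorted mouse cardiomyocytes (CMs) by 10 genes: the receptors *Notch1*, *Notch2* and *Notch3*, the ligands *Jag1*, *Jag2* and *Dll4*, and the transcriptional repressors *Hey1*, *Hey2*, *Heyl* and *Hes1*. The members were all probes that carry one of these gene names in the microarray scanner output, which were 12 of 55681 probes, since *Notch1* and *Notch2* have 2 probes each. The cells came from wild-type CD1 mice and were sorted by how much integrin α6 (ITGA6) they carried on their surface, to separate CMs of the ventricles from CMs of the atria. At embryonic day (E) 15.5 the sort also required the surface marker ERBB-2, and it gave a group EL with little ITGA6 and a group EH with much of it. On postnatal day (P) 2, hearts were first depleted of non-myocytes with a magnetic kit, and the sort gave PL with little and PH with much ITGA6. Each experiment pooled 20 to 30 embryonic or 15 neonatal hearts, and at least 50000 cells were collected per fraction. RNA of 4 experiments per group, numbered 2, 3, 6 and 8 at E15.5 and 2, 3, 4 and 5 at P2, was amplified from 10 ng and measured on 16 one-color Agilent microarrays.

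Notch receptors are activated by Jagged and Delta-like ligands on the neighboring cell, are then cleaved, and send their intracellular part to the nucleus, where it joins the DNA-binding protein RBPJ and turns on target genes such as those of the Hey and Hes families. HEY1 and HEY2 are basic helix-loop-helix repressors. In the embryonic heart *Hey1* is known as a gene of the atria and *Hey2* as a gene of the ventricles, and Notch signaling also runs in the endocardium, the valves, the coronary vessels and the smooth muscle and pericytes around them.

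The identity of the fractions was checked with marker genes. The pan-CM genes *Tnnt2* (cardiac troponin T) and *Nkx2-5* (a cardiac transcription factor) were detected on all 16. Of 7 atrial markers, 6 were higher in EH than in EL and 7 higher in PH than in PL, and all 5 ventricular markers were lower in both comparisons. The myosin gene *Myl7*, an atrial marker, was at 9441 ± 496 (SD, n = 4) in EL and 141490 ± 12145 in EH at E15.5, and 4807 ± 4236 in PL and 214270 ± 23032 in PH. Thus the low fractions carried the ventricular and the high fractions the atrial pattern. Markers of other cell types were measured as well. In EH the endothelial genes *Cdh5*, *Tie1* and *Emcn* exceeded background clearly on each of 4 microarrays, against 0 of 4 in each other group. Other endothelial markers were detected more widely, by their brightest probes: *Kdr* and *Egfl7* on all 16, and *Eng* and *Robo4* on all 4 of EL as well as of EH. The summed signal of 13 endothelial markers was 5570, 4504, 13270 and 12560 in EH samples 2, 3, 6 and 8, 2119 to 2511 in EL, 1077 to 2432 in PL and 1441 to 2228 in PH. Samples 6 and 8 of EH therefore stood apart from samples 2 and 3. The differences of pathway genes between EH and EL that rest on them are given with and without them.

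The probes are DNA oligonucleotides of 60 bases. Those of the members that the results turn on are shown here by name, position in the mouse build mm9 as deposited, and sequence (their first 30 bases). Where the gene model places a probe was not analysed here, since no annotation of mm9 was used.
Hey1, A_51_P258409, chr3:8663432-8663491, minus strand: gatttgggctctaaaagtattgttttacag
Hey2, A_51_P307082, chr10:30552729-30552788, minus strand: ccagaggctcattgacaccaactcaaaaac
Jag1, A_52_P634090, chr2:136907433-136907492, minus strand: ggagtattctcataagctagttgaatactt
Jag2, A_51_P451338, chr12:114146887-114146946, minus strand: ttgtataaattattcaacggctgtcaggcg
Notch3, A_51_P220162, chr17:32257848-32257907, minus strand: gcctaatagaaatgtttttaggctgttttt
Notch2, A_52_P289213, chr3:97953914-97953973, plus strand: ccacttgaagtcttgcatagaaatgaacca

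Hey genes are targets of RBPJ, so the promoters of the members were searched for its motif GTGGGAA on both strands in the 250 bases before and 50 bases after the gene start. The RefSeq (GRCm38.p6) promoters used here held this window for 7 of the 10 members. *Hey1*, *Heyl* and *Hes1* were not among them, so *Hey2* was the only Hey or Hes member searched. The motif occurred in 1 of the 7, *Hey2*, at 2 places, and in 6.38% of all 32851 promoters. The first match begins 207 bases before the *Hey2* start and lies on the opposite strand, and the second begins 4 bases before it. The E-box CACGTG, a motif that HEY proteins can bind and that can overlap the RBPJ motif by its letters GTG, occurred in 0 of the 7 windows and in 7.15% of all promoters. These matches are descriptions of the sequence only. The *Hey2* stretch is shown because *Hey2* was the member that passed the test as lower in both high fractions. It covers chr10:30842781-30843033 of GRCm38.p6, minus strand, and capitals mark the 2 matches.
Hey2 promoter: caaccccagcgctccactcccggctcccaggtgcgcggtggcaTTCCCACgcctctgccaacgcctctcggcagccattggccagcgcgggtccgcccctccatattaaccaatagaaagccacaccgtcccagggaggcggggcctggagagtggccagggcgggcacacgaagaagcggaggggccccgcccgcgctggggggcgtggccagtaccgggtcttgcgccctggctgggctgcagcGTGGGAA

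All levels given here are normalized signals (quantile normalized, linear scale) of single probes, so levels can be compared between samples and not between genes. A probe counted as detected on a microarray where the scanner software marked it as well above background. Differences are log2 fold changes with their standard error (SE) from a limma fit over all probes of the 16 microarrays. A difference passed the test with an adjusted p (Benjamini-Hochberg over all 55681 probes) of at most 0.05, and was past the threshold if it also reached 3-fold. In 1 or more groups, 7 of the 10 genes were detected on every microarray by their brightest probe: *Notch2*, *Notch3*, *Jag1*, *Jag2*, *Hey1*, *Hey2* and *Heyl*. Only the first *Notch2* probe was detected on all 16. *Notch1*, *Dll4* and *Hes1* were near or below background, as was the second *Notch2* probe.

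The first question was how the pathway differs between the ITGA6-high and the ITGA6-low cells of one stage. At E15.5, *Hey1*, *Jag1*, *Jag2* and *Dll4* were higher and *Hey2* was lower in EH than in EL, and 5 of 12 member probes were past the threshold, where 1.63% of all probes were. By the test alone, 4.27% of all probes were higher and 3.83% lower in EH, together 8.1%. At P2, *Hey1*, *Jag1* and *Jag2* were higher and *Hey2* was lower in PH than in PL, 4 member probes passed the test, where 11.6% of all probes did (6.15% higher and 5.41% lower), and 3 of them reached 3-fold, where 2.65% did. Of the 10 brightest probes the median log2 fold change was 0.52 between EH and EL and 0.16 between PH and PL, and the medians of all probes were -0.02 and -0.01. Fewer cells that express a gene and less RNA per cell cannot be told apart in such pooled samples.

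*Hey1* had a normalized signal of 69.9, 74.8, 83.7 and 71.1 in EL samples 2, 3, 6 and 8. In EH it was 449, 484, 428 and 490. At P2 it was 36.1, 37.2, 25.1 and 31.1 in PL samples 2, 3, 4 and 5, of which the latter 2 were not well above background. In PH it was 254, 208, 227 and 223. Every microarray of a high fraction lay above every microarray of both low fractions, and the 4 groups did not overlap. The difference was 2.63 ± 0.11 (SE) on the log2 scale between EH and EL, which is 6.18-fold (adjusted p = 2.7e-08), and 2.83 ± 0.11 between PH and PL, 7.10-fold (adjusted p = 2.3e-09). Since PL samples 4 and 5 were not well above background, sizes of *Hey1* that use PL are not exact. The order of the levels was EH, PH, EL and PL, from high to low.

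*Hey2* ran the other way. The EL samples gave 226, 304.5, 221 and 247, and the PL samples 330.0, 303, 138 and 220.0. In EH the signals were 4.33, 3.49, 12.6 and 21.9, of which only that of sample 8 was well above background. In PH they were 3.49, 3.51, 3.48 and 3.51, none of them well above background. The groups of a stage did not overlap. Between EH and EL the log2 fold change was -4.95 ± 0.47 (adjusted p = 1.3e-05), which is no exact size, since 3 of the 4 EH signals were not well above background. PL was at least 14.65-fold higher than PH (adjusted p = 8.9e-07), where the lowest signal that was well above background on a PH microarray takes the place of its dimmer one. The EH samples in which *Hey2* was brightest, 6 and 8, were those with the most endothelial signal. The summed signal of 5 ventricular markers was 234000, 293400, 277900 and 373100 in EH samples 2, 3, 6 and 8, the highest in sample 8, and 784300 to 805100 in EL. The part of either in the EH signal of *Hey2* was not tested. Without EH samples 6 and 8 the difference passed in the same direction, but neither of the EH samples that remain was well above background, so it has no exact size.

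**Figure D1:**
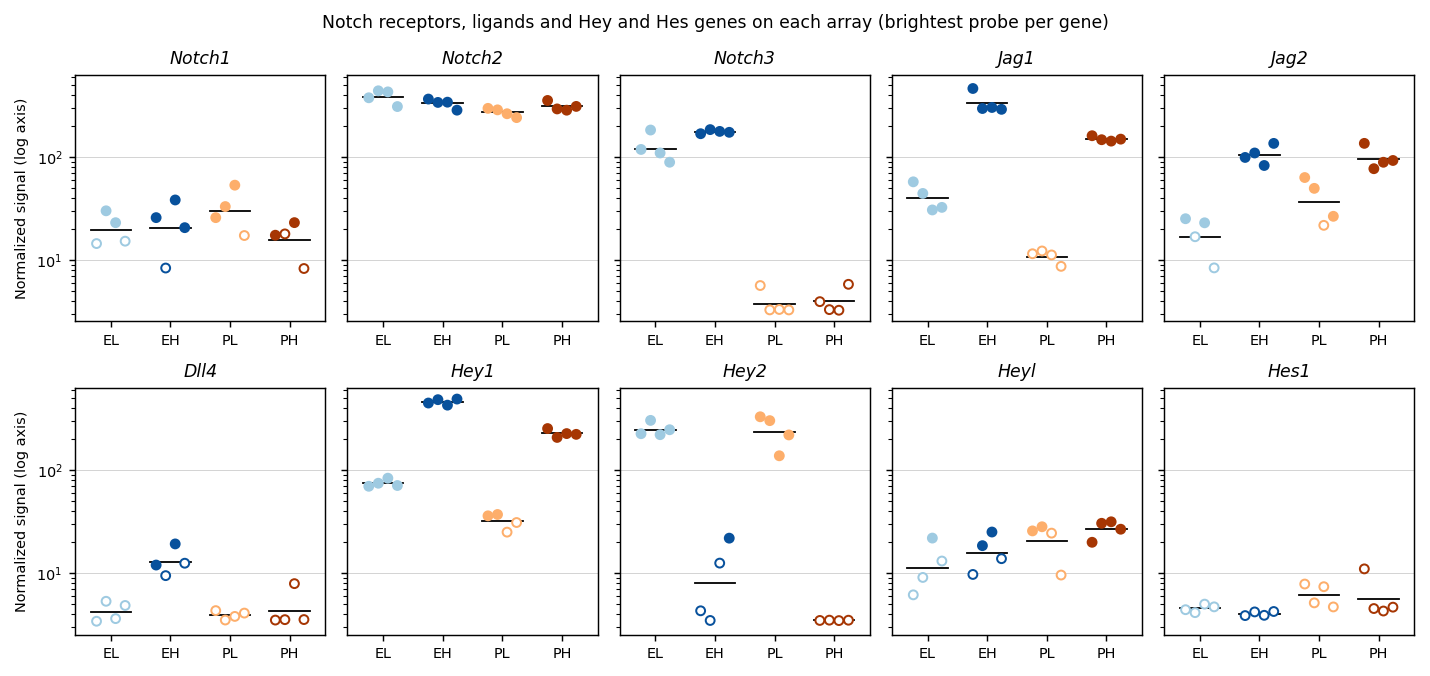
Normalized signal (log axis) of the brightest probe of each member on each of the 16 microarrays, by group, with the samples of a group in the order of their numbers. Filled points were well above background, open points were not, and the bar is the geometric mean of 4 microarrays. *Hey1* and *Jag1* are high in EH and PH, *Hey2* is high in EL and PL (138 to 330.0), and *Notch3* is detected at E15.5 and on none of the 8 microarrays of P2.

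Of the ligands, *Jag1*, the gene of Jagged 1, had the pattern of *Hey1*. The EL samples gave 57.3, 44.2, 30.6 and 32.4, and the EH samples 461, 295, 302 and 290. In PL the signals were 11.5, 12.2, 11.2 and 8.68, none of them well above background, and in PH 161, 147, 142 and 149. The 4 groups did not overlap. EH exceeded EL by 3.05 ± 0.20 on the log2 scale, which is 8.29-fold (adjusted p = 5.1e-07), and PH was at least 7.73-fold higher than PL (adjusted p = 2.4e-08).

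*Jag2*, the gene of Jagged 2, was at 25.2, 16.8, 22.96 and 8.39 in EL, where samples 3 and 8 were not well above background, and at 98.9, 109, 82.6 and 135 in EH. In PL it was 63.1, 49.6, 21.7 and 26.6, with sample 4 not well above background, and in PH 135, 76.9, 88.8 and 92.4. The fractions of a stage did not overlap, although at P2 the highest PL sample came near the lowest PH sample. *Jag2* was higher by 2.63 ± 0.38 in EH than in EL (6.203-fold, adjusted p = 0.00046) and by 1.39 ± 0.38 in PH than in PL (2.62-fold, adjusted p = 0.028). Neither size is exact, since EL samples 3 and 8 and PL sample 4 were not well above background. The P2 difference did not pass the test when the sample number entered the fit as a block (adjusted p = 0.060), nor with PL and PH alone in the fit (adjusted p = 0.085), nor without any of PL 4, PL 5, PH 2, PH 4 or PH 5 (adjusted p = 0.053 to 0.085).

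The sizes of these differences depended on how low signals were treated. With normexp background correction and its offset of 50, all of them passed in the same direction, but the log2 fold changes between EH and EL were 1.84 for *Hey1*, -2.09 for *Hey2*, 1.93 for *Jag1* and 1.07 for *Jag2*. Between PH and PL they were 1.54, -2.22, 1.43 and 0.59 in that order, which for *Hey2* and *Jag1* is less than the bounds given above. Those bounds, and all lower bounds given below, hold for the processed signals only.

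*Dll4*, which encodes the ligand Delta-like 4 of arterial and sprouting endothelium, was near background throughout. It was 3.43, 5.35, 3.64 and 4.88 in EL and 12.03, 9.495, 19.3 and 12.5 in EH, where samples 2 and 6 were well above background. On the 8 microarrays of P2 it was 3.52 to 7.94 and never well above background. The EH signals lay above all others, and the difference between EH and EL passed the test (adjusted p = 0.0017), but its size has no lower bound above 1-fold. With signals below the dimmest detected signal set to that level, *Dll4* no longer passed (adjusted p = 0.49).

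None of the receptors passed the test between the fractions at either stage. *Notch2* was the member detected on every microarray. Its first probe was at 375, 438, 428 and 308 in EL and 364, 338, 340 and 284 in EH at E15.5, and 296, 286, 262 and 241 in PL and 353, 292, 284 and 309 in PH. The fractions overlapped at both stages, and EH and EL differed by -0.22 ± 0.12 (adjusted p = 0.41) and PH and PL by 0.19 ± 0.12 (adjusted p = 0.47). *Notch3*, a receptor known from vascular smooth muscle and pericytes, was at 118, 182, 109 and 88.8 in EL and at 168, 184, 177 and 173 in EH, a difference of 0.54 ± 0.24 that did not pass (adjusted p = 0.25). Among the EL samples the highest, sample 3, lay within the EH range. The brighter *Notch1* probe gave 8.27 to 53.2 over all 16 microarrays and was well above background on 10 of them with no group complete, and the other *Notch1* probe on 0 of 16. The second *Notch2* probe was at 6.91 to 29.8 and well above background on 7 microarrays.

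*Heyl*, the third Hey gene, known from smooth muscle, was at 6.18 to 21.97 in EL and 9.75 to 25.2 in EH at E15.5, and 9.62 to 28.3 in PL and 20.0 to 31.6 in PH, and only in PH was it well above background on all 4 microarrays. The groups overlapped, and PH and PL differed by 0.40 ± 0.42 (adjusted p = 0.72). *Hes1*, the general Notch target, was at 3.89 to 11.0 and on 0 of 16 microarrays well above background, so that its level was not measurable with this probe.

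The second question was whether the difference between the fractions changed from E15.5 to P2, which was tested as an interaction, PH against PL minus EH against EL. For the members 0 of 12 probes passed with limma, where 3.15% of all probes did and 1.2% were past the threshold, and 4 had an unadjusted p below 0.05 (*Dll4*, *Jag1*, *Notch2* and *Jag2*), where 12.3% of all probes did. The interaction was 0.20 ± 0.16 for *Hey1* (adjusted p = 0.73), -1.12 ± 0.67 for *Hey2* (adjusted p = 0.59), 0.74 ± 0.28 for *Jag1* (adjusted p = 0.25) and -1.24 ± 0.54 for *Jag2* (adjusted p = 0.35). For *Dll4* it was -1.46 ± 0.38 (adjusted p = 0.060), and this passed in 4 other settings, among them 75th percentile scaling (adjusted p = 0.037) and the slide as a block (adjusted p = 0.044). For *Hey2*, *Jag1* and *Dll4*, which were not well above background in PH, in PL and in both P2 groups, these values are no exact sizes. At E15.5 the microarrays were spread over 2 slides. With the slide in the fit EH against EL was 2.64 for *Hey1*, -4.84 for *Hey2*, 3.0004 for *Jag1* and 2.65 for *Jag2*. Within the first slide the values were 2.75, -5.09, 2.98 and 2.97, all of which passed. The second slide held a single EH sample, number 6, in which *Hey2* was not well above background. It gave 2.44, -4.37, 3.04 and 2.07 as values without replicates in EH, so no call is taken from it.

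**Figure D2:**
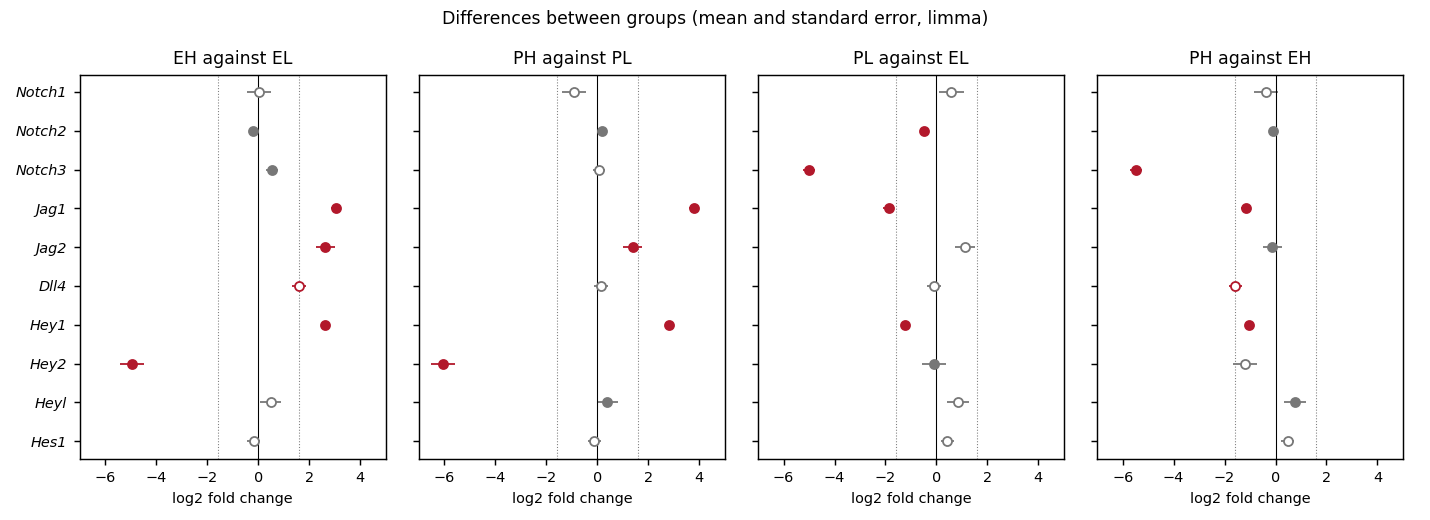
log2 fold changes with their standard errors (horizontal axis) of the brightest probe of each member in 4 comparisons. Red points passed the test, gray points did not, filled points were well above background in a whole group of the comparison, and dotted lines mark 3-fold. *Hey1* and *Jag1* lie to the right and *Hey2* to the left in both comparisons of the fractions, and *Notch3* lies near the left edge in the comparisons of the stages, where its P2 signals were not well above background and its place is no exact size.

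The third comparison was between the stages. It is confounded, since all P2 microarrays shared a slide that held no E15.5 sample and the cells of the stages were purified in different ways: stage, slide and purification cannot be told apart. Of 12 member probes 0 were higher and 4 lower in PL than in EL, where 10% of all probes were lower and 19.7% passed either way, and 2 were past the threshold, where 3.75% of all probes were. Between PH and EH 0 were higher and 4 lower, where 8.37% of all probes were lower and 17.5% passed either way, and 1 was past the threshold, where 3.39% of all probes were.

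*Notch3* was detected at E15.5 and not at P2. Its P2 signals were 5.66, 3.28, 3.31 and 3.28 in PL and 3.95, 3.30, 3.26 and 5.81 in PH, none of them well above background, against 88.8 to 184 at E15.5. EL was at least 6.22-fold higher than PL (adjusted p = 1.2e-08) and EH at least 10.95-fold higher than PH (adjusted p = 7.9e-09). With normexp the log2 fold changes were -1.64 and -1.98 and passed, and the bounds hold for the processed signals only. *Jag1* was at least 2.06-fold higher in EL than in PL (adjusted p = 1.0e-05) and lower in PH than in EH, with a log2 fold change of -1.14 ± 0.20 (adjusted p = 0.00089). With normexp the *Jag1* value between PL and EL was -0.43, less than the 2.06-fold bound. *Jag2* did not pass in either stage comparison (1.12 ± 0.38, adjusted p = 0.055, and -0.12 ± 0.38, adjusted p = 0.91). *Hey1* was lower at P2 in both fractions, with log2 fold changes of -1.22 ± 0.11 in PL against EL (adjusted p = 3.8e-06) and -1.02 ± 0.11 in PH against EH (adjusted p = 2.4e-05). *Hey2* did not pass in the low fractions, with means of 250 ± 38.2 (SD, n = 4) in EL and 248 ± 86.8 in PL (log2 fold change -0.08 ± 0.47, adjusted p = 0.99). *Notch2* was lower in PL than in EL, with a log2 fold change of -0.50 ± 0.12 (adjusted p = 0.0077), and did not pass between PH and EH (-0.10 ± 0.12, adjusted p = 0.69). *Dll4* was lower in PH than in EH (adjusted p = 0.00085), again with no measurable size.

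Markers of other cell types moved with stage as well. *Pdgfrb*, a receptor of pericytes and fibroblasts, was at 29.8 ± 4.64 in EL and 64.0 ± 8.80 in EH at E15.5, and 4.57 ± 1.78 in PL and 5.11 ± 1.67 in PH, and the pericyte gene *Rgs5* was well above background in EH alone, at 34.8 ± 8.81. The 9 smooth muscle and pericyte markers did not all move this way: between EH and EL 4 passed as higher and 1 as lower, between PL and EL 1 as higher and 5 as lower, and between PH and EH 0 as higher and 8 as lower. *Cspg4* was lower in EH than in EL (-1.66 ± 0.10, adjusted p = 2.4e-07), and *Abcc9* was higher in PL than in EL (1.55 ± 0.18, adjusted p = 2.0e-05); both are named after their values were seen. *Myh11*, which defines mature smooth muscle, was well above background on 0 of 16 microarrays, while *Acta2*, another of the 9 smooth muscle and pericyte markers, also belongs to young CMs. The summed signal of 8 fibroblast markers, among them *Col1a2*, was 12830 to 22360 in EL and 5437 to 10460 in EH at E15.5, and 522.5 to 1627 in PL and 545 to 800.5 in PH. That of 6 epicardial markers, among them *Msln*, was 2765 to 3906, 918 to 2680, 27.7 to 106.7 and 125 to 212 in the same order. Between the fractions of E15.5, fibroblast and epicardial markers did not pass the test (0 of 8 and 0 of 6). At P2, 1 fibroblast marker passed as lower in PH, *Postn* (at least 3.16-fold, adjusted p = 0.0069), and 2 epicardial markers as higher in PH, *Krt19* (at least 3.13-fold, adjusted p = 3.8e-05) and *Wt1* (at least 1.43-fold, adjusted p = 0.00024), which were not well above background on any PL microarray. The summed signal of 4 erythroid markers was highest in samples 6 of EL and EH (30390 and 33970, against 3628 to 17580 in the other E15.5 samples), and that of 8 leukocyte markers in EH 6 (8079, against 517 to 1857). Between PH and EH, 11 of 13 endothelial, 4 of 4 arterial endothelial, 7 of 8 leukocyte and 3 of 4 erythroid markers passed as lower. Between PL and EL these counts were 3, 2, 1 and 2, and in neither comparison did any pass as higher. Of 6 pan-CM markers, 5 passed as higher in PL than in EL and 2 in PH than in EH, and none as lower. The part of other cell types in the stage differences of *Notch3*, *Jag1* and *Hey1* was not tested.

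Beyond the members, a list of 63 other Notch pathway genes was described, of which 62 were measured and 51 detected. Between EH and EL 13 were higher and 4 lower, with 5 and 1 past the threshold, and between PH and PL 13 were higher and 2 lower, with 3 and 1 past it. All probes passed the test in 8.1% and 11.6% of cases. The median log2 fold change of the list was -0.02 and 0.14. Between EH and EL, 0 of 4 genes for ligand endocytosis passed, and 3 of 9 genes for receptor cleavage did. Of the nuclear partners, *Rbpj* and *Maml3* are named here after their values were seen. *Rbpj* was at 188 ± 10.9 in EL and 148 ± 16.1 in EH at E15.5, and 178 ± 27.5 in PL and 132 ± 15.7 in PH, lower in PH than in PL (-0.42 ± 0.12, adjusted p = 0.030), and did not pass between EH and EL (-0.35 ± 0.12, adjusted p = 0.098). Its second probe, also detected on all 16 microarrays, passed at neither stage (-0.52 with adjusted p = 0.40 at E15.5, -0.03 with adjusted p = 1.0 at P2). The coactivator gene *Maml3* was higher in both high fractions by its brightest probe (1.15 ± 0.15 and 0.95 ± 0.15), and its second detected probe did not pass at either stage (adjusted p = 0.12 and 0.067).

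The list also holds the corepressors of the Groucho family, which Hes-type repressors can recruit. *Tle3* was at 265, 230.0, 247 and 189 in EL and 1971, 1826, 1960 and 1684 in EH at E15.5, and 38.7, 54.1, 78.0 and 46.0 in PL, and 1333, 1362, 1436 and 1268 in PH. All 4 groups stood apart. The difference was 3.01 ± 0.17 at E15.5 and 4.69 ± 0.17 at P2, and the interaction of 1.68 ± 0.24 passed (adjusted p = 0.0015). *Tle1* was 190 ± 25.7 in EL and 417.5 ± 45.8 in EH at E15.5, and 92.3 ± 8.60 in PL and 387 ± 50.01 in PH, higher by 1.14 ± 0.12 and 2.06 ± 0.12 by its brightest probe. Its other probes did not all do so: of those detected on all 16 microarrays, 1 was higher too (0.76 and 1.84), and 1 ran the other way without passing (-0.06 and -0.69, adjusted p = 0.98 and 0.34), at 84.4 ± 12.8 in PL and 51.8 ± 3.48 in PH. *Tle4* ran the other way at E15.5, at 19.8 ± 2.87 in EL with 3 microarrays well above background and 6.82 ± 2.36 in EH with 0, at least 1.675-fold lower in EH (adjusted p = 0.00074), while its second probe did not pass (adjusted p = 0.34). Over the other settings the log2 fold change of the brightest *Tle4* probe was as small as -0.28, less than this bound. *Tle2* and *Numb*, named after their values were seen, did not pass between the fractions at either stage.

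Of the inhibitors, *Numbl*, a relative of the Notch antagonist Numb, was at 22.3 ± 3.40 in EL and 41.3 ± 3.38 in EH at E15.5, and 10.4 ± 3.41 in PL, where no microarray was well above background, and 43.0 ± 6.96 in PH, at least 2.20-fold higher than in PL (adjusted p = 1.2e-05). Over the other settings this log2 fold change was as small as 0.44, less than the bound. *Numb* itself did not pass (0.02 ± 0.11 at E15.5 and -0.19 ± 0.11 at P2). The ubiquitin ligase gene *Dtx3l* was lower in both high fractions, with 240 ± 16.1 in EL and 106.5 ± 19.5 in EH at E15.5, and 225 ± 37.6 in PL and 75.3 ± 17.6 in PH (-1.19 ± 0.18 and -1.59 ± 0.18) by its brightest probe, and its second probe passed at neither stage (adjusted p = 0.35 and 0.21).

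**Figure D3:**
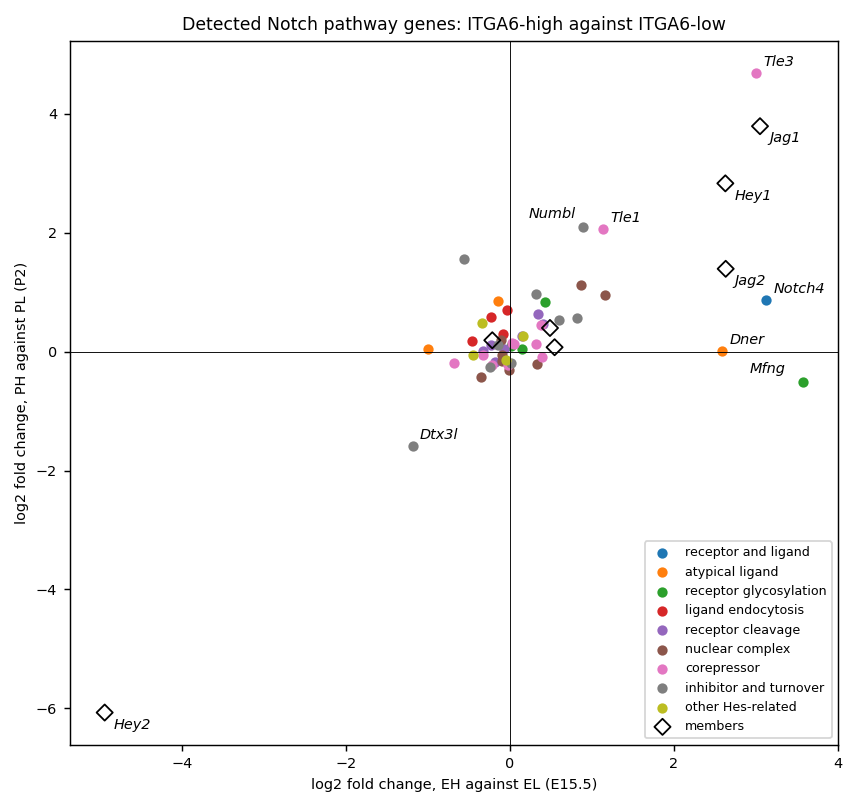
log2 fold change of EH against EL (horizontal axis) and of PH against PL (vertical axis) for the detected genes of the pathway list, colored by their role, with the 7 detected members as open diamonds. *Tle3*, *Jag1* and *Hey1* are high on both axes, *Hey2* is low on both, and *Mfng*, *Notch4* and *Dner* lie to the right, with no group of P2 in which they were detected throughout; of these 3 the interaction passed for *Dner* (adjusted p = 0.00021, but 0.076 with a floor for dim signals) and not for *Mfng* (0.066) or *Notch4* (0.28). Where a group was not well above background, as for *Hey2* in PH, the place of a point is no exact size.

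The pathway genes *Notch4*, *Mfng* and *Dner* were detected on every EH microarray and were near background elsewhere, while *Dll1* was near background in EH as well. *Notch4*, the endothelial Notch receptor, was at 49.0, 34.4, 158 and 153 in EH samples 2, 3, 6 and 8, at most 16.7 in EL with no microarray well above background, and at least 5.44-fold higher in EH (adjusted p = 0.0063). Over the other settings its log2 fold change was as small as 1.01, less than this bound. *Mfng*, a glycosyltransferase that modifies Notch receptors, was at 65.8, 58.0, 370 and 379 in EH and 6.05 to 28.1 in EL (3.58 ± 0.77, adjusted p = 0.0093), which is no exact size, since only 1 EL microarray was well above background. *Dner*, an atypical ligand, was at 21.9, 35.2, 18.3 and 35.6 in EH and well above background on 0 microarrays of the other groups (at least 1.82-fold, adjusted p = 2.6e-06). Its log2 fold change was as small as 0.54 over the other settings, less than this bound. *Dll1*, the ligand Delta-like 1, was at 7.91 to 17.6 in EH, with 1 microarray well above background, and 3.74 to 3.82 in EL (adjusted p = 3.2e-05), with no measurable size.

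*Notch4* and *Mfng* were brightest in EH samples 6 and 8, in which *Cdh5*, the gene of the endothelial cadherin, was at 391 and 333, against 77.3 and 46.0 in samples 2 and 3. *Egfl7*, another of the 13 endothelial markers, was at 3966, 2861, 7575 and 7740 in EH and 870.5 to 1127 in EL. By their brightest probes, 10 of the 13 markers passed the test as higher in EH than in EL. Between PH and PL 0 passed as higher and 1, *Robo4*, as lower (adjusted p = 0.00044), at 254 ± 56.0 in PL and 18.1 ± 2.90 in PH, where only 1 microarray was well above background. At P2, each microarray of PL and PH detected *Kdr* and *Egfl7*, *Kdr* at 808 ± 601 in PL and 619 ± 266 in PH and *Egfl7* at 542 ± 80.8 and 978 ± 97.2. Of 4 endocardial and 4 arterial endothelial markers, 3 of each list passed as higher in EH than in EL and none as lower. At P2, 1 of each list passed as higher in PH and none as lower. The endocardial gene *Nfatc1* was detected on each P2 microarray and passed as higher in PH (96.3 ± 33.8 and 179 ± 32.1, 0.95 ± 0.22, adjusted p = 0.012). *Plvap* was detected on 3 PL and 4 PH microarrays and did not pass (20.7 ± 2.05 and 31.7 ± 5.08), and *Npr3* and *Cytl1* were well above background on 0 microarrays of P2. A second *Kdr* probe was at 7.59 ± 2.64 in PL and 185 ± 28.6 in PH, at least 9.5-fold higher (adjusted p = 4.1e-06), while the brightest *Kdr* probe did not pass (-0.11, adjusted p = 1.0). Without EH samples 6 and 8, *Notch4* (2.17, adjusted p = 0.12) and *Mfng* (2.28, adjusted p = 0.16) no longer passed between EH and EL, with 2 EH samples left and EL signals mostly not well above background, so the 5.44-fold bound and the 3.58 given above rest in part on these samples. *Dner* (adjusted p = 2.4e-05), *Dll1* (adjusted p = 0.00027) and *Dll4* (adjusted p = 0.031) still did, against EL signals of which none was well above background, and with these raised to the dimmest detected signal *Dll1* (adjusted p = 0.32) and *Dll4* did not pass in the full set of samples. The log2 fold changes of *Hey1* (2.64), *Jag1* (3.21) and *Jag2* (2.62) passed without EH samples 6 and 8. The sort for ERBB-2 at E15.5 and the depletion of non-myocytes at P2 were meant to leave CMs, and the part of endothelial or endocardial cells in the signals of these genes was not tested.

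**Figure D4:**
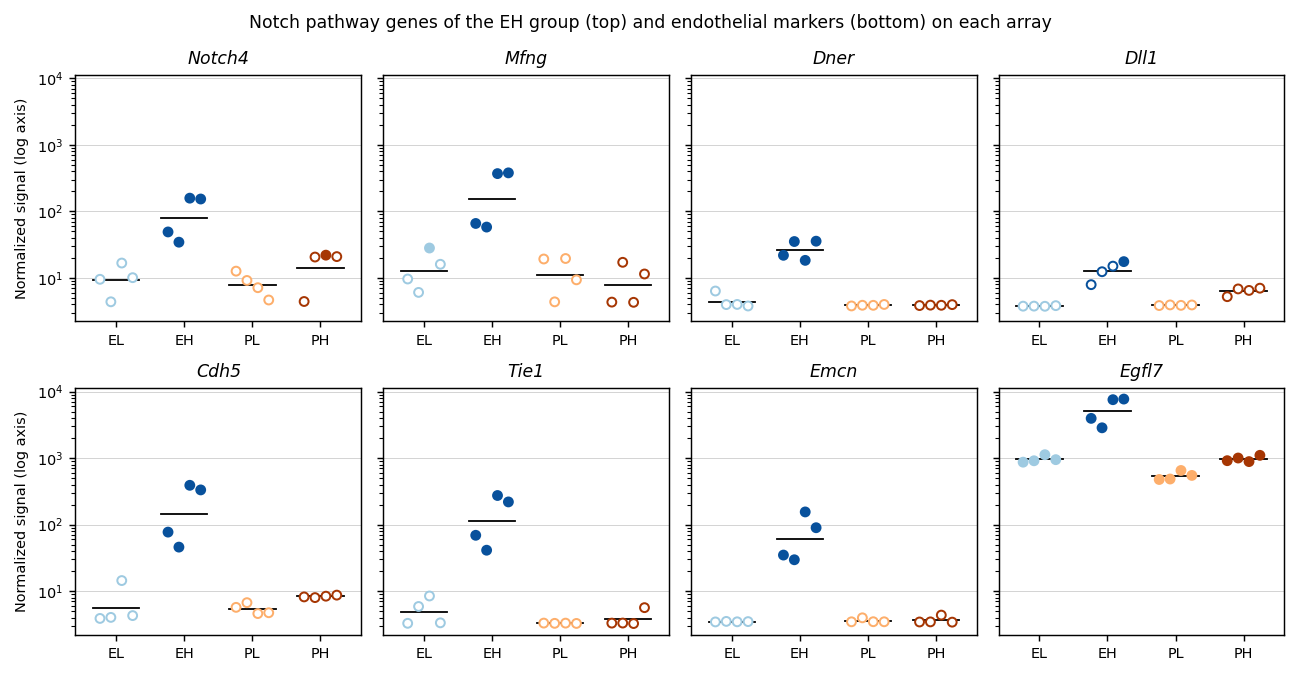
Normalized signal (log axis) on each microarray of 4 pathway genes (top) and 4 endothelial markers (bottom), with filled points well above background, open points not, and bars for the geometric mean. *Notch4* and *Mfng* follow *Cdh5*, *Tie1* and *Emcn* in being brightest in EH samples 6 and 8, the last 2 of that group, while *Dner* is at 18.3 to 35.6 in EH with sample 6 the lowest.

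Between the stages, 7 of the 62 pathway genes were higher and 17 lower in PL than in EL, with 2 and 6 past the threshold, and 9 higher and 14 lower in PH than in EH, with 2 and 6 past it. Of all probes, 19.7% passed between PL and EL and 17.5% between PH and EH, of which 10% and 8.37% were lower, and 3.75% and 3.39% were past the threshold. Here too the shares include probes detected in no group, so no excess is read from them. The 4 genes with the largest fitted values, all lower at P2, were *Dlk1*, *Dtx4*, *Dtx1* and *Tle3* in the low fractions and *Dlk1*, *Mfng*, *Dner* and *Dtx1* in the high fractions; several rest on P2 signals that were not well above background, so their order is not given and the choice favors genes undetected at P2. *Fbxw7*, a ubiquitin ligase gene of Notch turnover named after its values were seen, was detected on all 16 microarrays and higher at P2 by its brightest probe (1.95 ± 0.10 in the low and 1.89 ± 0.10 in the high fractions), while its second probe, also detected on all 16, ran the other way without passing (-0.33 and -0.44, adjusted p = 0.22 and 0.093). *Tle3*, detected in both groups, had a log2 fold change of -2.14 ± 0.17 in PL against EL. *Dtx4* was at 170 ± 29.3 in EL and 13.3 ± 7.74 in PL, where only 1 microarray was well above background, so its size is not exact. *Dtx1*, detected on no P2 microarray, was at least 1.05-fold higher in EL than in PL and at least 2.23-fold higher in EH than in PH. EH exceeded PH at least 99.8-fold for *Dlk1*, 9.49-fold for *Mfng* and 1.66-fold for *Dner*. The *Mfng* bound rests in part on EH samples 6 and 8, in which the gene was brightest, and was not computed without them. *Dlk1*, an atypical ligand of fetal tissues, was at 2575 to 4387 in EL and 1069 to 2224 in EH and was well above background on only 1 of the 8 microarrays of P2.

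Finally, 9 heart genes that are linked to Notch or Hey in the literature of chamber and valve development were described, 7 of them detected. *Bmp10*, a growth factor of the developing myocardium, was at 143, 185, 178 and 159 in EH and 500, 316, 313 and 474 in PH and not well above background on any microarray of EL or PL, at least 11.3-fold and 20.2-fold higher in the high fractions (adjusted p = 3.3e-05 and 4.0e-06). Over the other settings its log2 fold changes were as small as 1.78 in EH against EL and 2.66 in PH against PL, less than these bounds. *Tbx2*, a repressor of chamber genes, was at 17.8 ± 2.15 in EL and 44.3 ± 7.18 in EH at E15.5, and 6.15 ± 1.95 in PL and 114 ± 39.8 in PH, with an interaction of 2.88 ± 0.36 (adjusted p = 0.00052) that is no exact size, since PL was not well above background, and at P2 it was at least 5.60-fold higher in PH. Over the other settings the *Tbx2* values were as small as 1.14 for PH against PL, less than this bound, and 0.81 for the interaction. *Bmp2* was higher in EH (2.34 ± 0.57, adjusted p = 0.020) and in PH (2.57 ± 0.57, adjusted p = 0.0076). The E15.5 call was lost in 6 of 20 other settings, among them the sample number as a block and the fit without EH samples 6 and 8 (adjusted p = 0.13). It was also lost without EL 8 or EH 6 and within the first slide (adjusted p = 0.11). The second slide alone is counted among the 6, but it held a single EH sample and decides nothing. The P2 call was lost with PL and PH alone in the fit (adjusted p = 0.11). The *Tbx2* relative *Tbx3* was higher in EH than in EL and lower in PH than in PL, under 3-fold in each (0.67 ± 0.12 and -0.70 ± 0.12), and this interaction of -1.37 ± 0.16 passed (adjusted p = 0.00033); it is named here after its values were seen. The valve genes *Snai1* and *Snai2* and the ephrin gene *Efnb2* did not pass between the fractions, and all 3 were lower at P2 in both fractions. For *Snai1* the E15.5 means were 33.5 ± 3.89 in EL and 37.1 ± 5.56 in EH, and no P2 microarray was well above background.

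**Figure D5:**
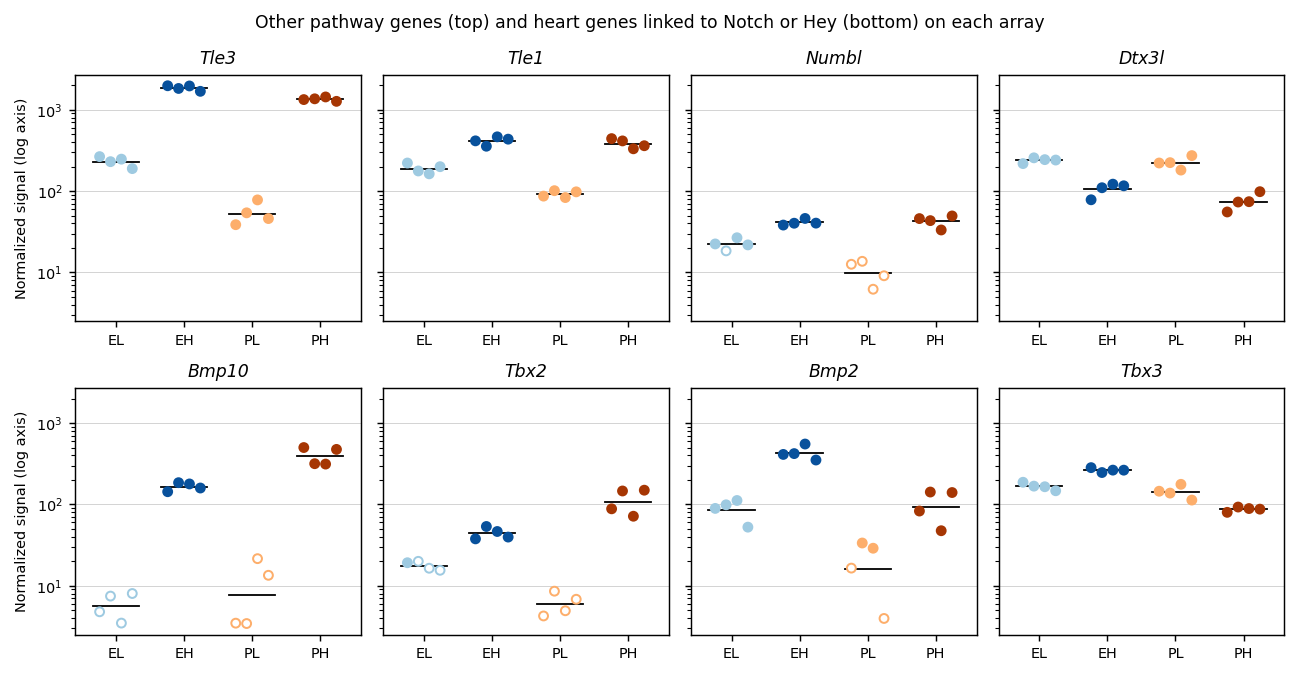
Normalized signal (log axis) on each microarray of 4 other pathway genes (top) and 4 heart genes linked to Notch or Hey (bottom), with filled points well above background, open points not, and bars for the geometric mean. *Tle3* lies at 1268 to 1971 in EH and PH and at 38.7 to 265 in EL and PL, *Dtx3l* runs the other way, and *Tbx3* is highest in EH and lowest in PH.

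The genes whose profile over the 16 microarrays was most like that of a member were sought by the Pearson correlation of log2 signals among the brightest probes of 13030 or 13031 detected genes. The samples fall into 4 groups, so these values mainly describe group levels and carry no test. Nearest to *Hey1* were *Adarb1* (r = 0.987), *E130308A19Rik* (0.985), *Fkbp9* (0.984), *Kdelr3* (0.983) and *Jag1* (0.983). For *Jag1* the nearest were *Hey1* (0.983), *Adarb1* (0.982) and *Tle3* (0.981). After each microarray's deviation from its group mean was taken alone, *Hey1* and *Jag1* correlated with r = -0.10 and *Jag1* and *Tle3* with 0.31, so that most of this likeness was between the group levels. Nearest to *Hey2* were *Lrrc1* (0.981), *Tpd52l1* (0.976), the ventricular genes *Myl3* (0.976) and *Lbh* (0.976), and *Srrm4* (0.972). *Notch3* was most like *Slc2a1* (0.990), *Slc43a1* (0.988) and *Gpc3* (0.987), *Jag2* most like *Gpc4* (0.931), *Nptn* (0.914) and *Rrbp1* (0.912), and *Notch2* most like *Azi1* (0.909), *Csnk1g3* (0.885) and *Gatad2a* (0.865). *Heyl* was most like *Acyp2* (0.887), *Zfp758* (0.850) and *AI480653* (0.815). The highest values of *Dll4* (*Smoc1*, *Egr4* and the endothelial gene *Plvap*, 0.938 to 0.950), *Notch1* (*Pnma2*, *Dcc* and *Rhox8*, 0.741 to 0.770) and *Hes1* (*Adat1*, *Gigyf1* and *Bfar*, 0.868 to 0.888) rest on signals near background. Of the members, only *Notch2* was well above background on all 16 microarrays. The values of the others rest in part on signals that were not, as for *Notch3* at P2, *Hey2* in EH and PH and *Jag1* in PL.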

How the data were processed

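Per spot, the deposited scanner files give background, mean and processed signal intensity, written by Agilent Feature Extraction 10.7.3.1, and the authors also deposited a table of quantile-normalized log2 values. Control and outlier spots were left out here and spots of a probe averaged. Processed intensities (55681 probes) then underwent quantile normalization between microarrays and were put on the log2 scale. Group means were fitted with limma 3.58.1 (R 4.3.3) and Benjamini-Hochberg adjustment. This main fit holds no block for the sample number, so its SE and adjusted p ignore any pairing of samples. The sample number as a block was an alternative. The fit was tested on simulated data. Exact permutation tests of 4 against 4 microarrays cannot go below p = 0.0286, which *Hey1*, *Hey2*, *Jag1* and *Jag2* reached between the fractions of both stages. They treat the microarrays of a stage as exchangeable and so ignore the pairing of the E15.5 samples described below, and any pairing at P2. Precision is limited by the 4 microarrays per group, on which 35.7% to 46.5% of probes were well above background.

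Where no microarray of a group was well above background, a difference is given as "at least": the mean of the brighter group over the mean, per microarray, of the lowest signal well above background or the probe's own if higher. Samples were grouped by their labels. Slides held EL 2, EL 8, EH 2, EH 3 and EH 8, then EL 3, EL 6 and EH 6, then all P2 samples. Deviations of EL and EH samples of the same number correlated with r = 0.255, 0.189, 0.450 and 0.379, all above 0.1 and were taken to pair the samples by this check alone, since no label says what a number marks. At P2 the values were 0.375, 0.176, -0.0305 and 0.542 for samples 2, 3, 4 and 5, against -0.397 to 0.144 between samples of different number. With the value of sample 4 below 0.1, the P2 samples were not taken as paired. The values of the other samples lay above that range, so a pairing at P2 is not excluded.

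The members and lists were chosen with earlier results of these data known. Named were all members, the listed genes past the threshold between fractions or in the interaction, the 4 largest fitted stage differences of the pathway list, up to 3 defining genes and the gene of the brightest probe of a marker list, and the 5 (*Hey1*, *Hey2*) or 3 most similar genes. Of several probes of a listed gene the brightest was used. Alternatives were 75th percentile scaling, normexp background correction (offset 50), the deposited log2 values, detected probes only, a floor for dim signals, only the groups compared, each microarray left out, sample number or slide as a block, single slides, the methods' test (analysis of variance with Tukey), and, chosen after seeing the data, EH without samples 6 and 8.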

Additional observations from a re-analysis of the deposited data

Results flagged for a closer look

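Of 17 groups in which a member probe was well above background on all 4 microarrays, 1 held a sample far from the others by Dixon's test, which chance would give in about 1 of 20 groups. This was *Jag1* in EH, where sample 2 had 461 and the other samples 290 to 302.

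The difference between the fractions itself differed between the stages for 7 of the 62 measured pathway genes (5 higher and 2 lower at P2, where 3.15% of all probes passed) and for *Tbx2* and *Tbx3*, tested as the interaction on the log2 scale. It was higher at P2 for *Tle3* (1.68), *Tle1* (0.93), *Numbl* (1.20) and *Tbx2* (2.88), and lower at P2 for *Dner* (-2.59) and *Dll1* (-1.04). *Dner* and *Dll1* were not well above background on any P2 microarray, and *Numbl* and *Tbx2* on none of PL, so these 4 values are no exact sizes; at P2 *Numbl* and *Tbx2* were at least 2.20-fold and 5.60-fold higher in PH. The value of *Tle1* is that of its brightest probe, and 1 other probe detected throughout gave -0.63 (adjusted p = 0.74). For *Dll1* and *Numbl*, the adjusted p of 0.047 and 0.049 stood near the limit, and the interaction passed in 3 of 23 and 8 of 24 other settings only. With a floor for dim signals the interaction of *Dner* did not pass (adjusted p = 0.076). The interactions of *Pofut1* (0.41, adjusted p = 0.0041), *Neurl1a* (0.82, adjusted p = 0.035) and *Tbx3* (-1.37, adjusted p = 0.00033), named after their values were seen, also passed. The share of 3.15% includes probes detected in no group, so no excess is read from it.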

How the results depend on the processing

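The counts of member probes moved with the processing. Those that passed were, over all settings but single microarrays left out, 4 to 6 between EH and EL, 3 to 4 between PH and PL, 4 to 5 between PL and EL and 3 to 4 between PH and EH. With 75th percentile scaling, 1 probe passed in the interaction and 1 was past the threshold there, and 2 were past it between PH and EH; this scaling moved the median of all probes to -0.18 (EH against EL), -0.14 (PH against PL), 0.19 (PL against EL) and 0.19 (PH against EH). With normexp, 3 probes were past the threshold between EH and EL, 1 between PH and PL and 1 between PL and EL. The floor for dim signals left 1 between PL and EL, and the slide as a block let 1 probe pass in the interaction. With single microarrays left out, 0 to 1 probes passed in the interaction, 0 to 1 were past the threshold there (1 without EH 3 or PH 4), and 1 to 3 between PH and EH (3 without EH 3, 2 without EH 2, EH 8 or PH 4). Over all probes, those past the threshold were 907 (EH against EL), 1476 (PH against PL), 670 (interaction), 2089 (PL against EL) and 1890 (PH against EH), and with normexp 207, 418, 233, 460 and 426; with the floor they were 567, 964, 520, 1256 and 1129. For single members and named genes, 34 of 51 results kept their direction and side of the test in every setting. With normexp, the interactions of *Jag1* (-0.50) and *Hey1* (-0.30) turned in sign. The *Hey2* value between PL and EL turned without EL 3 (0.02) or PL 4 (0.18), in a range from -0.24 to 0.18 with single microarrays left out. None of these passed in either form. The slide as a block gave 0.15 there. No slide held both stages, so a stage comparison with this block depends on the slide taken as reference and decides nothing. Within the first slide *Notch4* (2.70, adjusted p = 0.12) and *Mfng* (3.19, adjusted p = 0.13) did not pass between EH and EL; the second slide, with a single EH sample taken to vary like the others, gave 4.21 and 4.83. No call is taken from the second slide alone, though it is counted among the settings. *Bmp2* lost its E15.5 call with the replicate block (adjusted p = 0.061), and *Notch3* passed between EH and EL with normexp (adjusted p = 0.018) and with the floor (adjusted p = 0.049). Apart from *Jag2* at P2, *Bmp2* and the interaction of *Dll1* (adjusted p = 0.079), the replicate block changed no call. With normexp the member differences that passed between the fractions were smaller, as given above, and *Jag1* was at -0.43 between PL and EL. The cause of these changes was not tested. For *Hes1* and the P2 signals of *Notch3*, never well above background, the microarrays set only upper limits.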
